A study of Homo sapiens with 6 samples.

Results

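The Vector libraries of this study hold RNA of RKO, an established human colorectal carcinoma line, and the protein-coding transcriptome of these control cells is described here. Of 19951 protein-coding genes of GENCODE version 29, 10450 had an FPKM of at least 1 in all 3 Vector libraries and were taken as expressed, which was 52.4%. FPKM counts the fragments assigned to a gene per unit of exon length and of library size. The length was that of all annotated exons of a gene merged, which can exceed that of its message. Ranks and ratios between genes below are in this measure and depend on that length. The series also holds 3 libraries of cells overexpressing the long noncoding RNA LOC101927668, which were not used, and the whole table lists 58735 genes. Stable lines in the study were made with a plenti6 lentivirus and puromycin selection, the cells were grown in DMEM with fetal bovine serum, and RNA was taken with TRIzol. RKO comes from 1 tumour, so the levels describe this control line and not colorectal cancer in general. RNA was measured in bulk, so that fewer cells with a transcript and less of it per cell cannot be told apart.

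A cell line made from a tumour keeps part of the transcription programme of the tissue it came from and loses part of it. Colonocytes are known by simple keratins, E-cadherin, and the transcription factors CDX1, CDX2 and HNF4A, and the crypt also holds stem cells, mucus-secreting goblet cells and hormone-producing cells. Carcinoma cells can lose the junctions of an epithelium and take up genes of mesenchymal cells, and promoters rich in CpG dinucleotides can be shut by DNA methylation. RKO is known as a mismatch repair deficient line.

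The libraries held 17837954, 17048823 and 17053917 reads on genes. The reads behind each FPKM could be computed for 100% of the values, to within 0.02 reads. The limit of detection was set at 3 reads or fewer in every library, and 6222 genes, or 31.2%, were there. Of those, 4525 had no read in any library, and 3279 further genes lay between the limit and the threshold. The shares of 52.4% expressed and 31.2% at the limit are those to set beside each count of list members below. The expressed genes had a median FPKM of 8.37, with quartiles of 4.25 and 16.5, against a median of 1.66 over all protein-coding genes. The lowest library of an expressed gene held 784 reads in the median and 4 at the least. Next to the threshold, MAP3K8 and ACSF3 lay just inside, both with 1.00 in their lowest library, and COL11A2 and TEX45 lay just outside, both with 0.997. Limits set from read numbers take in counting error alone. The sources used here name no molecular identifiers, so reads copied from 1 molecule cannot be told from reads of separate molecules.

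The most abundant messages came from mitochondria and from the translation machinery. Of the 30 genes with the highest mean FPKM, 12 lie in the mitochondrial genome, 9 encode ribosomal proteins and 9 were others. MT-CO1, a subunit of cytochrome c oxidase at chrM:5904-7445, led with FPKM of 9417, 7905 and 8295. MT-CO2, MT-ATP6 and MT-CO3 followed with means between 5031 and 5749. The highest nuclear gene in the table was FTL, the ferritin light chain that stores iron, at chr19:48965301-48966878, with 4006, 3532 and 3387. FTH1, the heavy chain of ferritin, looked up after the values were seen, had 82.8, 81.8 and 75.5, and 62.4% of its exon bases are shared with other genes, so the rank of such genes is uncertain. EEF1A1, the factor that brings aminoacyl-tRNA to the ribosome, had 2973, 2701 and 2696. EEF2, which moves the ribosome along, had a mean of 1432 ± 62.7 (SD, n = 3). In FTL, EEF1A1 and EEF2 replicate 1 was the highest library.

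Among the remaining abundant genes were MT2A, a metal-binding metallothionein, with 1331, 1088 and 1088, and HMGA1, an architectural chromatin protein, with 1027, 1035 and 990. The cytoskeletal genes ACTG1 and TMSB10 had means of 927 ± 45.1 and 672 ± 51.5 (SD, n = 3), the chaperone HSP90AB1 had 690 ± 37.9 and the glycolytic enzyme GAPDH 645 ± 51.5. Of the 29 pairs of neighbours in this order of 30 genes, 8 had ranges over the 3 libraries that did not overlap and 21 had ranges that overlapped, so most neighbouring ranks were not separated. MT-CO1 stood clear of MT-CO2, FTL of EEF1A1, EEF1A1 of MT-CYB, and MT2A of HMGA1.

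**Figure D1:**
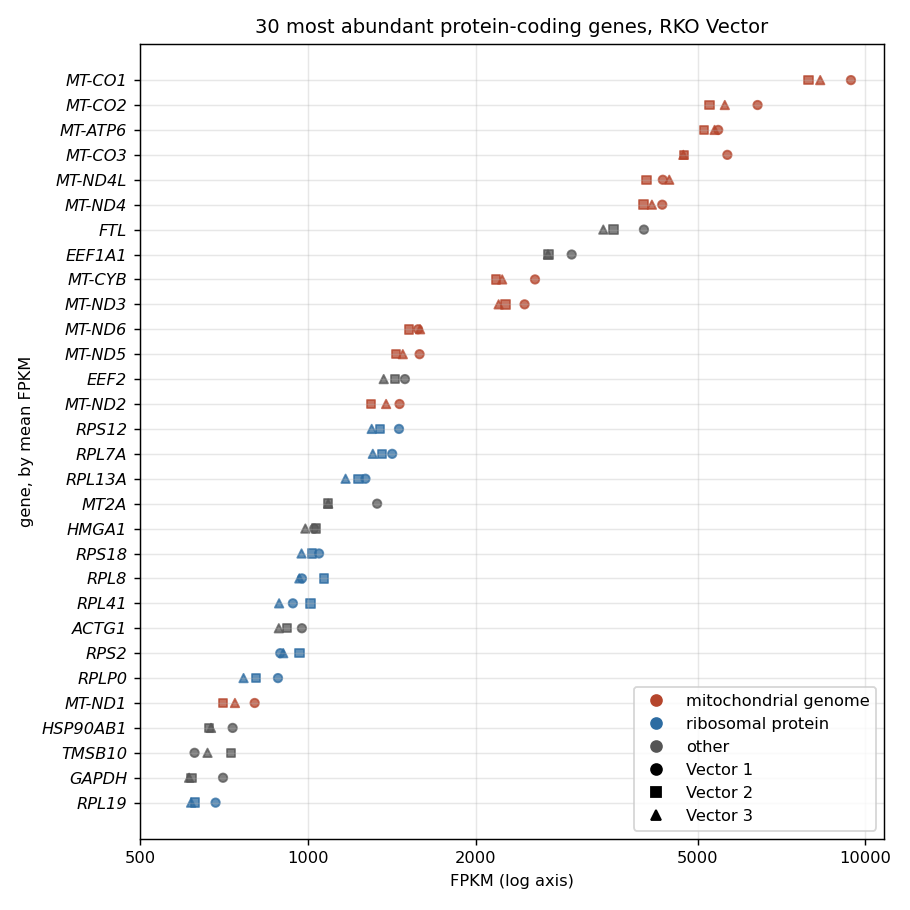
FPKM of the 30 most abundant protein-coding genes (log axis) in the 3 Vector libraries, 1 symbol per library, coloured by class. MT-CO1 lies highest, at 7905 to 9417, and FTL and EEF1A1 are the highest nuclear genes.

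A small number of genes held much of the summed FPKM of protein-coding genes. The 10 most abundant held 18.3% ± 0.698 (SD, n = 3), the 100 most abundant 37.1% ± 0.683, and the 1000 most abundant 61.7% ± 0.688. The 13 protein-coding genes of the mitochondrial genome together held 17.8% ± 0.664, with 18.4%, 17.1% and 17.9% in the libraries. The 83 expressed genes for cytosolic ribosomal proteins held 10.96% ± 0.286. Levels of ribosomal protein genes are uncertain, because near-identical processed copies elsewhere in the genome can take their reads. RPS28P7, a processed pseudogene of RPS28 singled out after its values were seen, was listed at 2171 ± 114 while RPS28 had 72.2 ± 15.3 (SD, n = 3). These levels are scaled to 210 exon bases for RPS28P7 and to 2119 for RPS28. In reads the gap was smaller, with 8638, 8862 and 8000 for RPS28P7 against 3538, 2703 and 2326 for RPS28.

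Messages of ribosomal proteins and elongation factors are known for a start of C followed by pyrimidines, the terminal oligopyrimidine motif through which their translation is regulated. The first transcribed bases of abundant genes are shown for that reason, with genes that lack such a start beside them. Each window runs from 10 bases before to 20 bases from the RefSeq start (GRCh38.p14), read in the direction of transcription, and the capitals mark the first 5 transcribed bases. The windows lie at chr6:73521013-73521042 (minus strand) for EEF1A1, chr19:3985444-3985473 (minus) for EEF2, chr6:132814559-132814588 (plus) for RPS12, chr19:49487598-49487627 (plus) for RPL13A, chr6:33272065-33272094 (plus) for RPS18, chr9:133348208-133348237 (plus) for RPL7A, chr19:48965299-48965328 (plus) for FTL, chr12:6535254-6535283 (plus) for GAPDH, chr16:56608574-56608603 (plus) for MT2A and chr17:81512780-81512809 (minus) for ACTG1.
EEF1A1: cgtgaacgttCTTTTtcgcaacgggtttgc
EEF2: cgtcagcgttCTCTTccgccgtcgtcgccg
RPS12: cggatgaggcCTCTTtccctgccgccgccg
RPL13A: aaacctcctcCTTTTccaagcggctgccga
RPS18: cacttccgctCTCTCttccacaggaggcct
RPL7A: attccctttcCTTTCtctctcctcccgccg
FTL: acgtcccctcGCAGTtcggcggtcccgcgg
GAPDH: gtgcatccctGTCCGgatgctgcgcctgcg
MT2A: gctgcactccACCACgcctcctccaagtcc
ACTG1: cgcggtcggtCTCAGtcgccgctgccagct
In the first 6 windows the start was C followed by 4 bases that were each C or T. FTL, GAPDH and MT2A began with G, G and A, and in ACTG1 the run was broken by an A. A start of this kind was found in 26 of 71 matched genes among the 100 most abundant, or 36.6%, and in 11.3% of the 744 matched genes that followed up to rank 1000. The share was 5.77% of the matched expressed genes, 3.13% of those at the limit of detection and 4.71% of all 15315 matched promoters. Within the 100 most abundant, it was 20 of 33 ribosomal protein genes and 6 of 38 others. The match was searched at the listed start and on the transcribed strand, and it describes letters, not regulation.

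The label of a colorectal line was checked against 22 genes of colonic epithelium, of which 5 were expressed and 14 were at the limit of detection. KRT18 and KRT8, the paired keratins of simple epithelia, had means of 18.8 ± 0.924 and 11.8 ± 0.0777 (SD, n = 3). Their reads had the other order, with 1196, 1097 and 1083 for KRT18 and 1520, 1499 and 1521 for KRT8. EPCAM, an epithelial adhesion molecule, had 5.01, 5.60 and 4.76. The intestinal transcription factor CDX2 had 4.71, 3.97 and 4.34. These genes were present at close levels in every library, all above the median of 1.66 over protein-coding genes. CDHR5, a brush border cadherin, passed the threshold in 2 of the 3 libraries, with 0.771, 1.59 and 1.44.

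Most of the other genes on this list were not detected at this depth. KRT20 and A1CF lay between the limit of detection and the threshold, with means of 0.203 and 0.0821. CDH1, which encodes E-cadherin, had 0 reads in each library, where 3 reads would give 0.0262 FPKM. CEACAM5, CEACAM6, CDX1, FABP1 and TSPAN8 also had 0 reads, and KRT19, VIL1, HNF4A, CDH17, GPA33, LGALS4 and PHGR1 did not pass 3 reads in any library. The libraries thus held messages of CDX2, EPCAM and simple keratins, while 14 of the 22 genes that mark the labelled tissue were at the limit of detection.

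Markers of mature crypt cells were scarce. Of 12 genes of absorptive colonocytes, CA2, a carbonic anhydrase, and SLC26A2, a sulfate transporter, were expressed, with 11.7 ± 0.777 and 9.56 ± 0.326 (SD, n = 3), and both are also known from other tissues. GUCA2A, CA4 and ALPI had no read. None of 14 genes of goblet and secretory cells was expressed, and AGR2, TFF3, REG4 and ZG16 had 0 reads. In the mucin family, 0 of 17 members were expressed and 10 were at the limit of detection, with MUC3A the highest at 0.916 and the goblet cell mucin MUC2 at 0.00421. Of 13 genes of enteroendocrine and tuft cells, SYP, a vesicle protein, was expressed at 3.03 ± 0.302.

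Of 21 genes of the intestinal stem cell and Wnt targets, 12 were expressed and 6 were at the limit of detection. The expressed share was 57.1%, against 52.4% over all protein-coding genes. MYC had 157, 143 and 134, the cyclin CCND1 42.5, 41.1 and 39.8, and the adhesion receptor CD44 17.7, 17.2 and 17.1. The feedback inhibitors of the Wnt pathway AXIN2, NKD1 and NOTUM were at 1.26, 1.68 and 1.39 in the mean, close to the threshold. LGR5, the marker of crypt base stem cells, had 0 reads, as did OLFM4, SMOC2 and TNFRSF19. RNF43, a ubiquitin ligase that removes Wnt receptors, had 3, 2 and 1 reads, but 73.9% of its exon bases overlap other genes.

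Such overlap bears on part of the protein-coding genes, since 11097 of 19951 share no exon base with another gene. Of 1133 protein-coding genes with over 50% of their exon bases shared with another gene on either strand, 11.7% were expressed, against 54.8% of the other 18818. Whether reads on shared bases were left out of these levels was not tested. Among listed genes this holds for ALDOA (53.5% of bases shared), MIF (62.0%) and CD68 (85.8%), while JUP and NR3C1 share no base and CDH1 shares 5.62%.

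Of 40 genes of epithelial junctions and epithelial regulators, 20 were expressed, 8 were at the limit of detection and 12 lay between. The expressed share of 50% was close to the 52.4% over all protein-coding genes. LSR, a protein of tricellular junctions, and SPINT1, an inhibitor of cell-surface serine proteases, led with 38.4 ± 1.65 and 32.1 ± 1.46 (SD, n = 3). The desmosomal genes DSG2 and DSP had 23.1 ± 0.951 and 12.2 ± 0.489, and TJP1, the scaffold of tight junctions, had 12.1 ± 0.278. JUP, the plakoglobin that links desmosomes and adherens junctions to the cytoskeleton, had 2, 1 and 2 reads. The plakophilins PKP3 and PKP2, which also link desmosomal cadherins to desmoplakin, had means of 8.55 and 5.81.

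The splicing regulators of epithelia were unequal. ESRP2 had 11.3, 10.9 and 10.1, and its paralogue ESRP1 had 0 reads in each library. GRHL2 and EHF, transcription factors of epithelia, also had 0 reads. Of 24 claudins, 4 were expressed, led by CLDN12 with 19.97 ± 1.61 and CLDN15 with 8.92 ± 0.755. Of 55 keratins, 3 were expressed, KRT18, KRT8 and KRT10, and 47 were at the limit of detection. Of 23 cadherins with a CDH symbol, only CDH24 was expressed, with 15.3, 15.2 and 14.3, and 17 were at the limit of detection, CDH1 and CDH2 among them.

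Of 35 mesenchymal genes, 16 were expressed and 15 were at the limit of detection. The expressed share was 45.7%, against 52.4% over all protein-coding genes. LGALS1, a galectin, had 266, 273 and 249. CAVIN1, a coat protein of caveolae, and MMP14, a membrane-bound metalloproteinase, had 48.9 ± 1.90 and 28.5 ± 1.25 (SD, n = 3). ZEB1, a repressor of epithelial genes, had 16.2, 20.1 and 20.8, with replicate 1 the lowest, and SNAI1 had 5.28 ± 0.210. The intermediate filament VIM, in contrast, had 4.02, 3.46 and 3.99, and KRT18 was 4.92 ± 0.390 times as high in FPKM. In reads the gap was smaller, with 1196, 1097 and 1083 for KRT18 against 389, 331 and 383 for VIM. ZEB2, TWIST1, TWIST2, CDH2, MMP2 and TGFBI had 0 reads, as had the collagens COL1A2 and COL3A1.

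**Figure D2:**
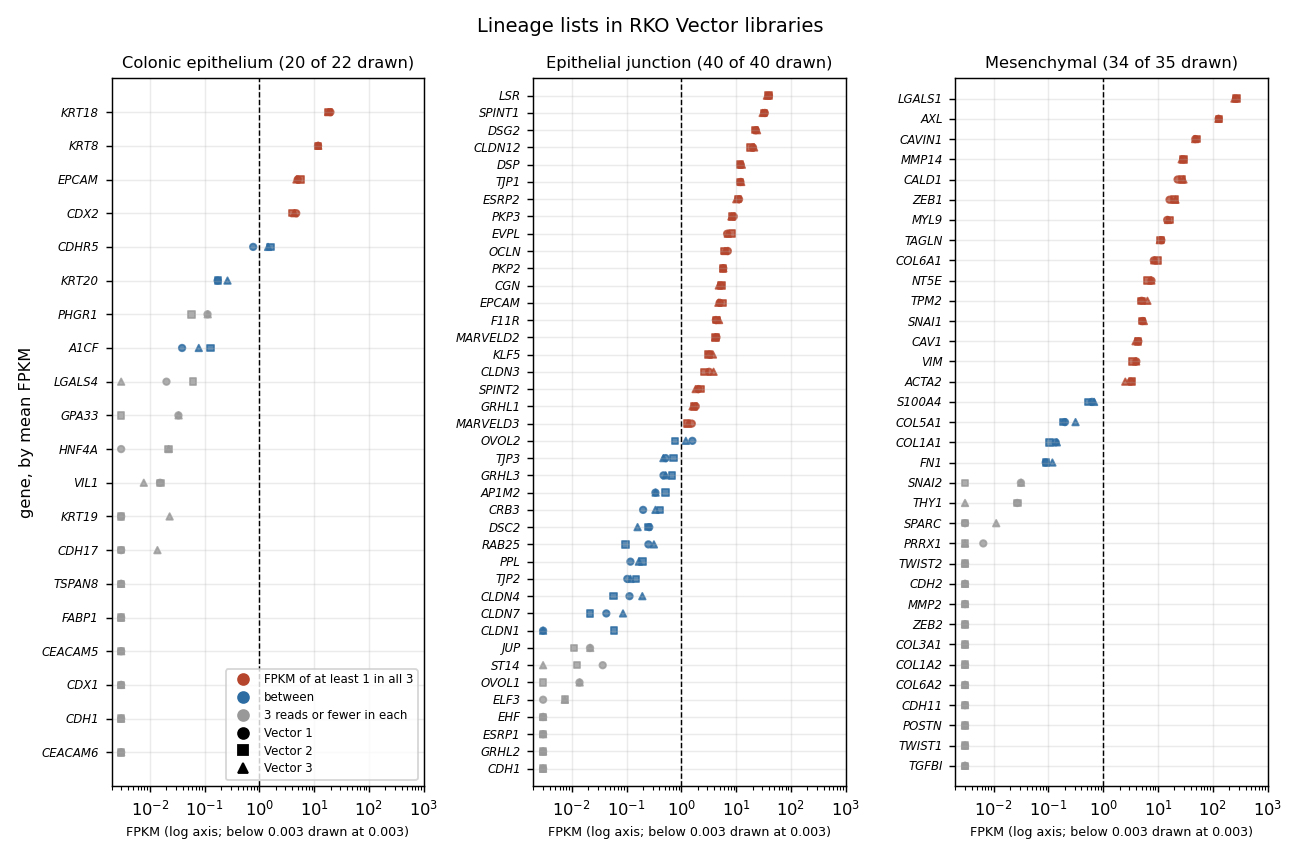
FPKM (log axis) of the drawn members of the colonic epithelium, epithelial junction and mesenchymal lists in the 3 Vector libraries, 1 symbol per library, with the dashed line at an FPKM of 1. Each list has members above 10 and members with no read, CDH1 and CDH2 among the latter.

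Markers of other cell types were mostly absent. Of 8 fibroblast genes, 0 were expressed and 6 were at the limit of detection, with DCN, COL1A2 and COL3A1 at 0 reads. Of 6 endothelial genes, ESAM was expressed with 4.23 ± 0.0833 (SD, n = 3), and KDR had 0 reads. Of 9 genes of blood and immune cells, LCP1, an actin-bundling plastin known from leukocytes and from many carcinoma lines, had 185, 168 and 174, while PTPRC, the common leukocyte antigen, had 1 read in 1 library and CD3E none. Of 5 neural genes 0 were expressed, and of 5 kidney genes PAX2 and PAX8 were expressed at 1.47 ± 0.0965 and 1.24 ± 0.129, with CDH6, SIX2 and LHX1 at 0. The summed FPKM of the list over the libraries was 0.170 to 0.203 for fibroblasts, 4.25 to 4.38 for endothelium, 170 to 186 for blood and 2.49 to 2.83 for kidney, carried in the last 3 by the genes named.

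Basement membrane and calcium-binding genes gave some of the highest levels outside translation. LAMB3, the beta chain of laminin-332, had 452, 457 and 434. LAMA3, the alpha chain with which it assembles, had 0, 1 and 0 reads, at the limit of detection in each library. Of 12 laminin genes, 6 were expressed, and LAMB2, LAMC1 and LAMB1 lay together at 19.9 ± 0.452, 19.5 ± 0.293 and 17.1 ± 0.701 (SD, n = 3). Of 19 S100 genes, 7 were expressed, or 36.8%. S100A6 had 496, 538 and 475, S100A16 519, 473 and 449, and S100A2 281, 392 and 326, in which replicate 2 was the highest.

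Receptors of the cell surface were then surveyed by class. Of 58 receptor tyrosine kinases, 22 were expressed, or 37.9% against 52.4% over all protein-coding genes, and 22 were at the limit of detection. AXL, the receptor of the vitamin K dependent ligand GAS6, led with 128, 129 and 126. EPHA2, an ephrin receptor, had 80.2, 76.4 and 74.98, and AXL was 1.66 ± 0.0545 times as high (SD, n = 3). Neither range met that of the next gene in the order. PTK7, a co-receptor of Wnt signalling, had 22.6, 23.2 and 22.1, and MET, the receptor of HGF, had 22.2, 21.4 and 22.6, and these overlapped. EPHB4 had 20.7 ± 0.701, below every library of MET. LMTK2, FGFR1 and LTK followed with means of 15.5, 15.3 and 15.3 and overlapping ranges.

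The ERBB receptors lay lower. ERBB2 had 11.6 ± 0.403, ERBB3 7.01 and EGFR 6.33, 6.03 and 6.44, while ERBB4 had 0 reads, with 3 reads worth 0.0124 FPKM. KIT, ALK, KDR, FLT1 and ROS1 also had 0 reads. Of the ligands, GAS6 had 9.18, 9.70 and 8.80 and HGF 18.3, 20.1 and 21.0, so that both AXL and MET were expressed beside their ligands. HGF is known mainly as a product of mesenchymal cells. Of 45 secreted growth factors, 16 were expressed, or 35.6% against 52.4% over all protein-coding genes. MDK led with 129 ± 5.05, followed by TGFB1 with 55.6 ± 4.41 and LIF with 36.5 ± 0.658. IGF2, NRG1, EREG, WNT5A and TGFB2 had 0 reads (exons of IGF2 lie mostly within other genes).

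**Figure D3:**
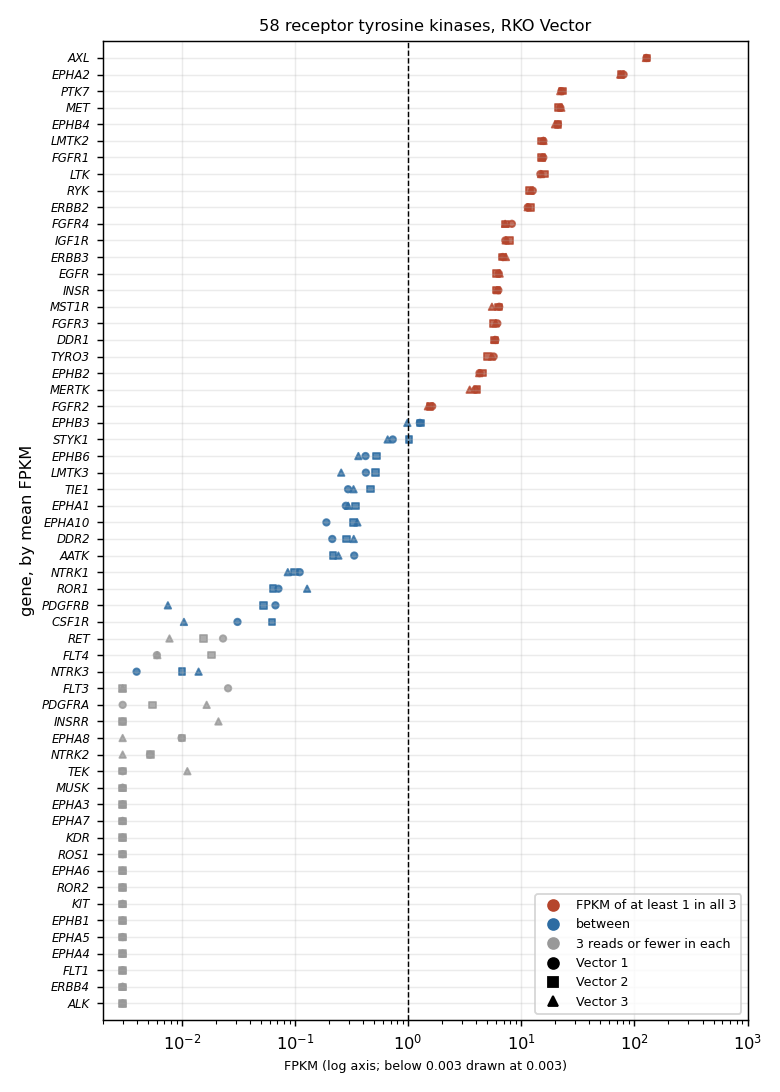
FPKM (log axis) of 58 receptor tyrosine kinases in the 3 Vector libraries, 1 symbol per library, ordered by mean, with the dashed line at an FPKM of 1. AXL and EPHA2 lie above all others, at 126 to 129 and 74.98 to 80.2, and 22 genes did not pass 3 reads in any library.

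Receptors of developmental pathways were present more often than not. Of 15 Wnt receptors and co-receptors 11 were expressed, with FZD6 at 18.8 ± 0.261 and LRP5 at 18.7 ± 0.692 (SD, n = 3) the highest and FZD9 and FZD10 at 0 reads. Of 14 receptors of TGF-beta and BMP ligands 10 were expressed, with TGFBR1 at 10.97 ± 0.289 and ACVR1B at 10.7 ± 0.543, and with TGFBR2, the receptor often mutated in mismatch repair deficient tumours, at 6.33 ± 0.431. Of 9 Notch receptors and ligands 6 were expressed, led by NOTCH1 at 19.0 ± 0.409 and JAG2 at 18.5 ± 1.27. Over all protein-coding genes the share was 52.4%. These lists were chosen with earlier results of these data known, so their shares are descriptions.

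Of 32 cytokine and death receptors 20 were expressed, or 62.5% against 52.4% over all protein-coding genes. The highest were genes with a TNFRSF symbol, but FAS and TNFRSF21 had means of 9.84 and 6.57, below IFNGR2 at 19.8. TNFRSF10B, which binds the death ligand TRAIL, had 91.7, 90.3 and 88.3, and it was 5.50 ± 0.213 times as high (SD, n = 3) as TNFRSF10A, the other signalling receptor of that ligand. The decoy receptor TNFRSF10D had 43.7, 39.7 and 40.3, and TNFRSF12A, the receptor of TWEAK, had 87.6, 92.9 and 80.1. LIFR had 0 reads although its ligand LIF was expressed, and IL6ST, the signalling chain it shares with other cytokine receptors, had 9.42.

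Of 26 integrin subunits 10 were expressed, or 38.5% against 52.4% over all protein-coding genes. ITGB1, which pairs with many alpha chains, had 239, 229 and 244, and ITGA5, its partner in the fibronectin receptor, had 35.4, 34.6 and 35.4. ITGB4, which with ITGA6 forms the laminin receptor of hemidesmosomes, had 0.229, 0.343 and 0.254, below ITGA6 at 7.26 ± 0.316. FN1, which encodes fibronectin itself, had a mean of 0.0991.

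Of 48 nuclear receptors 23 were expressed and 14 were at the limit of detection. The expressed share of 47.9% was close to the 52.4% over all protein-coding genes. The highest were the orphan receptors NR2F6 and ESRRA, at 33.2 ± 2.47 and 24.4 ± 1.47 (SD, n = 3), followed by RXRB at 15.8. The vitamin D receptor VDR had 3.33. NR3C1, the glucocorticoid receptor, had 0, 1 and 2 reads, where 3 reads are worth 0.0176 FPKM, and PGR, PPARG and THRB had 0 reads. Of the steroid receptors, ESR1 and ESR2 had means of 0.0464 and 0.0651, and the mineralocorticoid receptor NR3C2 had 0.238.

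Among genes of DNA mismatch repair, the endonuclease subunit PMS2 had 7.11, 7.20 and 6.36, and MSH6, which recognises the mismatch, had 10.9 ± 0.280 (SD, n = 3). PCNA, the clamp of replication, had 136 ± 8.60.

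Of 37 genes often methylated in colorectal cancer, the CpG island methylator panel included, 10 were expressed and 18 were at the limit of detection. The expressed share was 27.0%, against 52.4% over all protein-coding genes. The expressed ones were led by SEPT9 at 13.7, and by MGMT, which removes alkyl groups from guanine, at 13.01, 11.98 and 11.56. GATA4, RASSF1 and DAPK1 lay between 6.94 and 8.14. The Wnt antagonists SFRP2, SFRP4, WIF1 and DKK1 had 0 reads, and SFRP1 and SFRP5 did not pass 3 reads. TIMP3, an inhibitor of metalloproteinases, and the panel genes RUNX3, NEUROG1 and CRABP1 had 0 reads. SOCS1, another panel gene, was expressed with 2.17, 1.62 and 1.29. CDKN2A, which encodes the cell cycle inhibitors p16 and p14ARF, had 0.283, 0.274 and 0.298, below the threshold but with 22 to 24 reads. DNA methylation was not measured in these libraries.

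Of 20 enzymes and partners of DNA methylation and of histone marks, Polycomb proteins among them, 18 were expressed. DNMT1, the maintenance methyltransferase, had 32.0, 31.2 and 30.3, its partner UHRF1 30.1 ± 1.07 (SD, n = 3), and the Polycomb methyltransferase EZH2 19.9 ± 1.01. DNMT3B and DNMT3A had 4.21 and 2.76. TET1, which oxidises methylcytosine, had 1 read in 1 library, while TET2 and TET3 were expressed at 1.26 and 4.14, and DNMT3L had 0 reads.

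Promoters of single genes, set side by side, show that level and CpG content did not always go together. TIMP3 and WIF1 were chosen, after their values were seen, as genes with 0 reads and many CpG dinucleotides, and AXL and LAMB3 as abundant genes with few. Shown are the 250 bases before the RefSeq start nearest to the GENCODE start (GRCh38.p14), in the direction of transcription, with each CpG in capitals. They lie at chr22:32801455-32801704 (plus strand) for TIMP3, chr12:65121306-65121555 (minus) for WIF1, chr19:41218973-41219222 (plus) for AXL and chr1:209652426-209652675 (minus) for LAMB3.
TIMP3: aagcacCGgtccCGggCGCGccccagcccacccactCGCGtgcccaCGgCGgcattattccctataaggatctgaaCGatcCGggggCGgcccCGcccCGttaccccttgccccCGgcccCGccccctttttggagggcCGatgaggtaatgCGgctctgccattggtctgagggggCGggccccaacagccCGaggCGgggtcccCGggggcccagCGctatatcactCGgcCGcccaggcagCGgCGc
WIF1: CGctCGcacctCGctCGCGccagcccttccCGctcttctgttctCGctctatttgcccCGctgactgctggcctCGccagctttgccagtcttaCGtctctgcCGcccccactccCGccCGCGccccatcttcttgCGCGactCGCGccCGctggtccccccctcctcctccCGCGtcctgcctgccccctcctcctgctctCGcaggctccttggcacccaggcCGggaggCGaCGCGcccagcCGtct
AXL: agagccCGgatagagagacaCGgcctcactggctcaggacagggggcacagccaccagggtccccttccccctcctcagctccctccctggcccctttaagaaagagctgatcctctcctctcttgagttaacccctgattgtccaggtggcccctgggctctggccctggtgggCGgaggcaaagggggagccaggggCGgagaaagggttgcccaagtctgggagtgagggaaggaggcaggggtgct
LAMB3: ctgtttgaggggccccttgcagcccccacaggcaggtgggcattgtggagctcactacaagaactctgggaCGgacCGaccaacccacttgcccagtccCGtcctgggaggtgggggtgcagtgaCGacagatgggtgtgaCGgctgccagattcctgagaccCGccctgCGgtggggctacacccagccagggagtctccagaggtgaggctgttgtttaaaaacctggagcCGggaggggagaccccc
The TIMP3 and WIF1 promoters held 26 and 27 CpG dinucleotides, and those of AXL and LAMB3 held 4 and 8. Over genes the order was the opposite. Of 1933 matched genes with 0 to 2 CpG dinucleotides in these 250 bases, 10.1% were expressed and 70.0% were at the limit of detection. Of 2507 genes with 30 or more, 78.5% were expressed and 11.7% were at the limit of detection. The expressed share passed 50% between the ranges of 6 to 11, with 39.1%, and of 12 to 17, with 66.7%. At least 18 CpG dinucleotides were found in 67.4% of the matched expressed genes and in 22.6% of the matched genes at the limit of detection. Among the methylation panel this was 10 of 14 matched genes at the limit of detection and 7 of 8 matched expressed ones. The panel was drawn from genes with CpG islands, so its CpG content is no finding. A promoter was matched for 76.8% of the protein-coding genes, which is under the 80% set for a check over all genes, so the shares hold for the matched genes only. Of the expressed genes 82.2% were matched.

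**Figure D4:**
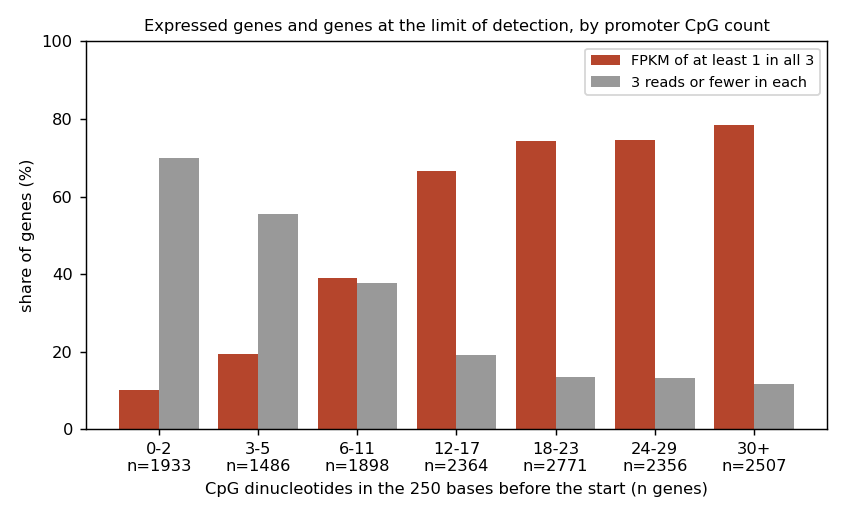
Share of matched protein-coding genes (%) that were expressed or at the limit of detection, by the number of CpG dinucleotides in the 250 bases before the start, with the number of genes under each range. The expressed share rises from 10.1% to 78.5% and the share at the limit of detection falls from 70.0% to 11.7%.

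Genes of the germ line were rarely detected. Of 36 cancer-testis antigens 34 were at the limit of detection, and PRAME alone was expressed, with 8.68, 7.77 and 7.83. BRDT, at 0.0290, was the only other member above the limit.

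Of 39 HOX genes, which record position along the body axis, 24 were expressed and 6 were at the limit of detection. The expressed share was 61.5%, against 52.4% over all protein-coding genes. HOXB9 had 32.6, 31.0 and 31.8, HOXA9 15.3, 16.3 and 15.1, and HOXB7 14.2, 11.3 and 10.4, highest in replicate 1. HOXB2, HOXA5 and HOXB8 lay between 7.77 and 8.29. HOXB13, HOXA13 and HOXC11 were at 1.59, 2.14 and 1.52, and HOXD13, HOXD11 and HOXD10 were at the limit of detection.

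Of 31 genes recurrently mutated in colorectal cancer 29 were expressed, or 93.5% against 52.4% over all protein-coding genes. GNAS, BAX and CTNNB1 had 55.3 ± 4.38, 52.7 ± 2.11 and 34.0 ± 1.72 (SD, n = 3). PIK3CA had 4.18 ± 0.184 and BRAF 3.38 ± 0.188. A level says nothing on whether a gene is mutated.

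Of 27 genes by which immune cells recognise a target, 20 were expressed, or 74.1% against 52.4% over all protein-coding genes. HLA-C, a class I molecule that presents peptides, had 226 ± 11.9 (SD, n = 3), HLA-B had 37.0 ± 3.20 and B2M, their light chain, 71.1 ± 3.88. In reads B2M was closer to HLA-C, with 8622, 7766 and 7799 against 11012, 10805 and 9916. Levels of the HLA genes are uncertain, since they are near-copies of each other and vary between genomes. CD274, which encodes the checkpoint ligand PD-L1, had 76.6, 73.5 and 73.0, and it was 8.27 ± 0.260 times as high as PDCD1LG2. The class II genes HLA-DRA, HLA-DPA1 and HLA-DQA1 had 0 reads, and CIITA, their transactivator, had 0.130.

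Of 32 glycolytic enzymes and transporters 22 were expressed, or 68.8% against 52.4% over all protein-coding genes. ENO1 had 304, 275 and 258, TPI1 213, and PKM 192 in the mean. In FPKM, LDHA was 5.06 ± 0.113 times as high as LDHB, the other subunit of lactate dehydrogenase (SD, n = 3). The gap was wider in reads, with 9866, 8545 and 8372 for LDHA against 925, 833 and 785 for LDHB. Of the exon bases of LDHB, 33.4% are shared with other genes. ENO2, the enolase known from neurons, had 53.6, 53.8 and 51.8. HK1 was 1.49 ± 0.0121 times as high as HK2, and the liver and pancreas forms SLC2A2 and PKLR were at 0 and 0.0225. ALDOC had 23.0 and ALDOA 2.63, the latter with the shared exon bases given above.

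The 3 libraries were close to each other. Pearson correlations of log2(FPKM + 1) across the 10450 expressed genes were 0.996, 0.995 and 0.996, given as a description, since genes are not independent replicates. The coefficient of variation, the SD over the mean, was 5.68% in the median. The counting error, the inverse square root of a gene's mean reads, was 3.48% in the median. For genes of 1 to 2 FPKM the median coefficient was 9.12%, beside a counting error of 7.88%. For the 224 genes of at least 100 it was 5.29%, beside 0.935%. The median thus lay above the counting error for low and for abundant genes, by a larger factor for abundant ones. A coefficient from 3 values falls more often below the true spread than above it, so the 2 measures are not directly comparable. The coefficient was under 10% for 83.6% of the expressed genes and over 20% for 151.

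Replicate 1 lay slightly above the others for abundant genes and slightly below them for low ones. For genes under 1500 exon bases replicate 3 had the largest median log2 deviation from the gene's mean, −0.065, against 0.042 in replicate 1. For genes of at least 100 FPKM the median log2 deviation of replicate 1 was 0.07, while those of replicates 2 and 3 were −0.01 and −0.06. For genes of 1 to 2 FPKM that of replicate 1 was −0.03, and for genes with at least 8000 exon bases the deviations of replicates 1 and 3 were −0.01 and 0.02. The labels do not say whether the 3 biological replicates were separate cultures, so the SDs may measure a technical spread.

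The 10 most variable genes with a mean of at least 10 FPKM had coefficients of variation between 19.2% and 26.8%. THOC3, a subunit of the mRNA export complex THO, had 29.9, 19.0 and 19.6, and MT-ATP8, a subunit of ATP synthase, 51.2, 74.9 and 86.7. MT-ATP8 overlaps MT-ATP6, and 22.2% of its bases are shared. The ribosomal protein genes RPS28, RPS21 and RPL26 were also among them, RPS21 with 594, 480 and 392, together with MRPL54, KLF2 and FAM173A. GOLGB1 and GOLGA4, long Golgi proteins of the golgin family, had 8.46, 10.99 and 13.05, and 8.15, 10.8 and 12.5, lowest in replicate 1. Replicates 1 and 3 were the extremes in 7 of the 10 genes.

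**Figure D5:**
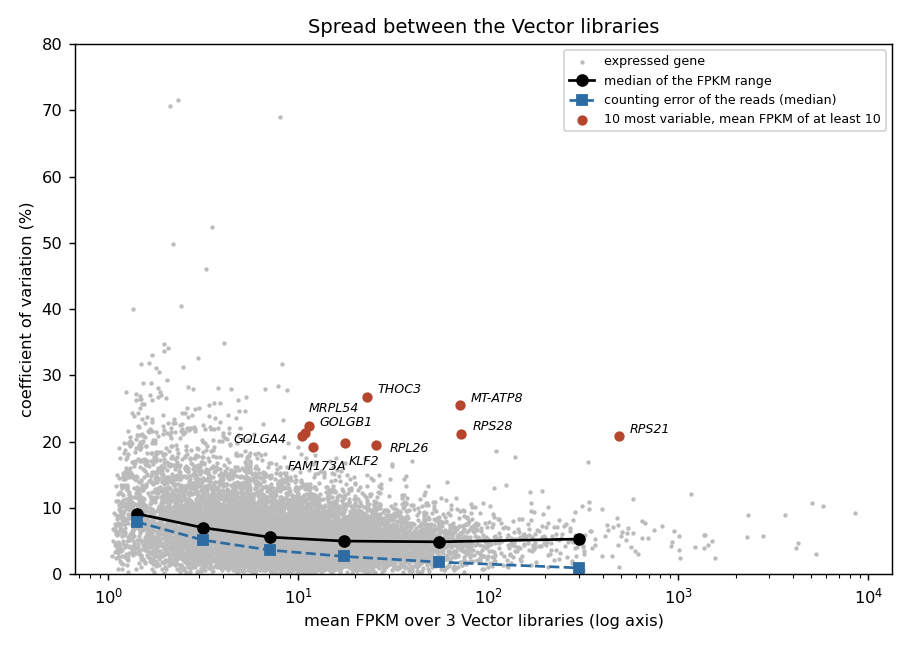
Coefficient of variation (%) over the 3 Vector libraries against mean FPKM (log axis) for the 10450 expressed genes, with the median of each FPKM range, the median counting error of its reads and the 10 most variable genes of at least 10 FPKM. The median falls from 9.12% to about 5% and stays above the counting error, which falls to 0.935%.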

How the data were processed

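RNA-seq libraries of RKO cells were prepared with a NEBNext Ultra kit and sequenced as paired ends. The authors deposited 1 table of FPKM values; the submitters' processing notes name HISAT2 2.0.4, StringTie 1.3.0 and hg38, with no role, and the handling of reads shared between genes is not given in the sources used here. The 3 Vector columns were used, 3 columns of overexpressing cells were not, and 0 columns belonged to no sample. All 58735 identifiers matched GENCODE 29. Each deposited FPKM times the merged exon length was a whole number of reads at 1 library size per library, between 18569332 and 18763335, by which the authors had scaled the libraries.

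No test was made, since 1 group was described. Members and the 28 gene lists (with 6 families by symbol) were chosen with earlier results of these data known. Genes were named as the 30 most abundant, up to 6 highest, limit-of-detection and compared members of each list, the 10 most variable of at least 10 FPKM, and 2 genes each side of the threshold; others are stated or give context to a list. Some genes within the counts are not reported here by name. Promoters came from RefSeq, matched by symbol. Alternatives covered the threshold, denominator, filter, pseudocount, scaling and omission of each library. The steps were tested on simulated data in Python 3.11.15 with numpy 2.4.6 and pandas 2.3.3, and figures were drawn with matplotlib 3.10.9.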

Additional observations from a re-analysis of the deposited data

Results flagged for a closer look

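Signal outside the protein-coding genes was set apart, since no comparison above used it. There were 1719 other genes of at least 200 bases, with at most 50% of their exon bases shared, that had an FPKM of at least 1 in all 3 Vector libraries. Of these, 439 are annotated as antisense, 336 as lincRNA and 367 as processed pseudogenes. The highest was RPS28P7 with 2192, 2273 and 2048, followed by the mitochondrial ribosomal RNA MT-RNR2 with 989 ± 86.7 (SD, n = 3). RN7SL2, the RNA of the signal recognition particle, had 217, 754 and 415, the widest spread among the 12 highest. EEF1A1P5, a processed copy of EEF1A1, had 383 ± 28.1. Whether these reads came from the parent genes was not tested.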

How the results depend on the processing

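The number of expressed genes stayed within 1.5 times of 10450 under each of 8 alternatives, from 10317 without genes that share over 50% of their exon bases, an alternative chosen after seeing the data, to 12096 for genes with at least 10 reads in all 3 libraries. The share of the 100 most abundant genes was 33.1% with all genes as the denominator and 24.7% without the mitochondrial genome, and 36.7% to 37.3% when 1 library was left out. The median coefficient of variation was 4.97% for genes of at least 10 FPKM and 7.83% with no filter, and 4.27% to 5.32% without 1 library, lowest without replicate 1. The mean correlation, 0.996, was 0.995 with a pseudocount of 0.1, 0.998 with no filter and 0.994 by Spearman's rank. Of 28 lists, 27 kept their count within 1.5 times, which is a loose limit. The absorptive colonocyte list went from 2 to 3 for 0.5 in all 3 and still counted as kept. The blood and immune list rose from 1 to 2 for a mean of at least 1 and for 0.5 in all 3, and had 1 to 2 without 1 library, through CD68 in replicate 3. Means of single genes were also recomputed by the median and without 1 library, where with 3 values a shift of 1 SD cannot occur, so this says nothing on their stability. No paired analysis was possible because 1 group was described and the result comes from no test. Depth limits the silent genes, which were treated as not detected at up to 3 reads in each library.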
